A study of Sus scrofa with 24 samples.

Results

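The change in muscle gene expression from 35 to 63 days post conception (dpc) was compared between fetuses of 2 pig breeds, German Landrace and Pietrain. For each probe set the German Landrace change, 63 minus 35 dpc, was subtracted from the Pietrain change, and the result is called the interaction below. A positive value means that the step was more upward, or less downward, in Pietrain. The comparison used the 12 arrays of the 4 groups concerned, out of 24 arrays and 8 groups in the series, and covered every probe set that is not an array control, 23999 in all. Each of the groups, German Landrace at 35 dpc, German Landrace at 63 dpc, Pietrain at 35 dpc and Pietrain at 63 dpc, held 3 RNA pools of longissimus dorsi, the long back muscle, named a, b and c and hybridised to the Affymetrix Porcine Genome Array. The sources used here do not give the number of animals in a pool or their sex, and all p-values rest on the variation among pools. In a free-text field the labels describe the fetal pools as peripubertal, and the titles of the 35 dpc pools alone carry a K that the labels do not explain. No genotype or treatment is named in the labels.

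Skeletal muscle of the fetus forms in waves: a first set of primary fibres arises from fusing myoblasts, and a larger set of secondary fibres is then laid down along them. As fibres mature, they fill with contractile proteins, calcium-handling proteins and enzymes of energy supply, while the dividing precursor cells and the nerve tissue sampled with very young muscle make up less of the RNA. Pietrain is known as a heavily muscled, lean breed, and an interaction between breed and stage is the measure of whether the fetal programme ran to the same extent over the same interval in both.

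All values are log2 intensities from a table in which every array had been given the same distribution, so each difference is relative to the other probe sets and the median interaction over all probe sets was 0.00. The highest of 23 control probe sets without a spiked target served as the background ceiling of an array (2.31 to 2.48), and 21.3% to 28.0% of the probe sets lay at or below it. Pools of a group correlated at 0.980 to 0.992 over probe sets, which do not count as independent. When arrays were instead centred on their spiked hybridisation controls, every interaction moved down by 0.63, so a positive value under 0.63 changes sign with that choice. Those controls averaged 10.40 to 10.64 and 10.99 to 11.09 in German Landrace at 35 and 63 dpc and 9.94 to 10.14 and 11.10 to 11.18 in Pietrain. The 3' minus 5' difference of the GAPDH control, a measure of RNA integrity and labelling, ran from 1.44 to 1.79 and 0.89 to 1.03 in German Landrace and from 1.36 to 1.51 and 1.02 to 1.14 in Pietrain. The hybridisation controls were used only as an alternative scale and the GAPDH difference only as a covariate, as given with the counts below.

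The steps differed between the breeds at 1395 of the 23999 probe sets (5.81%), in limma with a Benjamini-Hochberg adjusted p below 0.05 over all of them. The interaction was positive at 774 (3.23%) and negative at 621 (2.59%), and 4842 probe sets had an unadjusted p below 0.05. With the hybridisation controls as the scale the split was 272 positive and 11124 negative. The shared course was much larger than the difference: 9305 probe sets changed from 35 to 63 dpc in German Landrace (38.8%, with 19.2% up and 19.6% down) and 10449 in Pietrain (43.5%, with 21.7% up and 21.8% down). Taking the probe set with the highest mean for each of 6765 genes, 600 genes were called (8.87%), 368 positive (5.44%) and 232 negative (3.43%), and the median interaction over all these genes was 0.04.

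**Figure D1:**
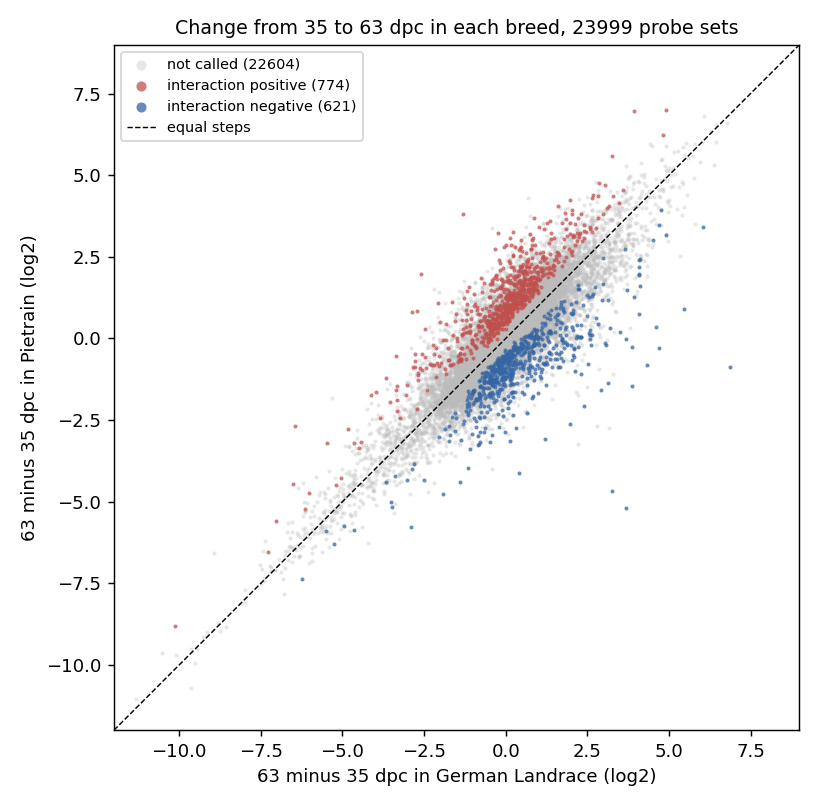
Change from 35 to 63 dpc in German Landrace (horizontal axis, log2) against the change in Pietrain (vertical axis, log2), 1 point per probe set, with the dashed line marking equal steps. Most points lie along the line, and the 774 red and 621 blue points, above and below it, are the probe sets whose interaction was positive and negative in limma; the split depends on the scaling (272 and 11124 on the hybridisation controls).

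Behind the 1395 calls stood several shapes. Both breeds changed in the same direction, by different amounts, at 558 probe sets, and in opposite directions at 118. The step was called in Pietrain alone at 488 and in German Landrace alone at 231. The interaction is also the breed difference at 63 dpc minus that at 35 dpc, so choosing calls by its sign by itself favours opposite signs at the stages. Among the positive calls the median breed difference, Pietrain minus German Landrace, was -0.60 at 35 dpc and 0.36 at 63 dpc. It was larger in size at 35 dpc for 523 of the 774. The negative calls were split evenly in this respect, with medians of 0.47 at 35 dpc and -0.51 at 63 dpc and the larger difference at 35 dpc for 303 of 621. Over all probe sets the breeds differed at 1422 at 35 dpc (5.93%, with 2.35% higher and 3.58% lower in Pietrain) and at 891 at 63 dpc (3.71%, with 1.67% higher and 2.04% lower).

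How many interactions were called depended on 1 array more than once. Without German Landrace 35 dpc pool a, b or c the count was 819, 788 or 851, and without Pietrain 35 dpc pool c it was 844; leaving out any other array gave 988 to 1489. A model over all 24 arrays called 793, of which 629 were among the 1395 in the same direction. With the GAPDH difference as a covariate 261 were called, and with the same difference of a spiked poly-A control, dap, 372. The dap difference averaged 1.55 and 3.35 in German Landrace at 35 and 63 dpc and 1.18 and 3.69 in Pietrain. The spiked controls thus differed between groups themselves: the dap 5' and 3' probe sets had interactions of -1.77 and -1.05. The 5' probe set of thr, another spiked control, had -1.72, and its part in the calls was not tested. Values after ± are standard errors of the 12-array fit, and adjusted p-values are limma's.

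Some genes of the differentiated muscle fibre started lower in Pietrain and rose further. Of 24 measured markers of differentiated myofibres, 7 had a positive interaction (29.2%, against 5.44% of all genes) and 0 a negative one, with 1 negative at an unadjusted p below 0.05 and 0 in the model over 24 arrays. The other 17 were not called. The median of the 24 was 0.23 and turned to -0.40 with the hybridisation controls as the scale. At 35 dpc 9 of the 24 were lower in Pietrain (against 3.58% of all probe sets), and at 63 dpc limma called 0, with 4 at an unadjusted p below 0.05. The mean level of the list was 10.88 to 11.01 in German Landrace and 10.49 to 10.55 in Pietrain at 35 dpc, and 13.11 to 13.14 and 12.94 to 13.10 at 63 dpc. In tissue samples such as these, fewer cells of a type and less RNA per cell cannot be told apart.

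PYGM, the muscle glycogen phosphorylase that releases glucose units from glycogen, had the largest interaction of these. It stood at 9.27, 9.40 and 9.40 in the German Landrace pools at 35 dpc and at 12.10, 12.24 and 12.26 at 63 dpc. The Pietrain pools read 8.17, 7.98 and 8.17, and then 12.52, 12.40 and 12.48. All Pietrain pools lay below all German Landrace pools at 35 dpc and above them at 63 dpc. PYGM thus rose 7.16-fold in German Landrace and 20.6-fold in Pietrain, an interaction of 1.52 ± 0.11 (adjusted p = 0.000734). Of 3 other PYGM probe sets, which ran from -0.07 to 0.69, 1 was called (0.69 ± 0.15, adjusted p = 0.029, and 0.06 on the hybridisation scale). That call was lost without 7 of the 12 arrays (at most 0.0651, without German Landrace 35 dpc pool a).

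CKM, the muscle creatine kinase that buffers ATP, read 11.19, 11.28 and 11.60 at 35 dpc and 14.84, 14.98 and 15.03 at 63 dpc in German Landrace. In Pietrain it read 10.37, 10.34 and 10.26, and 14.96, 14.76 and 14.92. The groups were apart at 35 dpc and overlapped at 63 dpc, and the interaction was 0.96 ± 0.15 (adjusted p = 0.0107). RYR1, the calcium release channel of the sarcoplasmic reticulum, went from 8.93, 9.06 and 9.08 to 12.32, 12.35 and 12.31 in German Landrace. Its Pietrain pools went from 8.09, 8.22 and 8.10 to 12.63, 12.41 and 12.47, an interaction of 1.07 ± 0.10 (adjusted p = 0.00209). Its Pietrain pools were all lower at 35 dpc and all slightly higher at 63 dpc. CKB, the brain-type creatine kinase that early muscle also makes, had 0.88 ± 0.13 (adjusted p = 0.00855). Its adjusted p was 0.355 over all 24 arrays and 0.339 on the hybridisation scale. Thus 2 of 7 genes of creatine kinase and energy buffering were positive (28.6%, against 5.44% of all genes). The breed difference of RYR1, Pietrain minus German Landrace, was -0.89 ± 0.07 at 35 dpc (adjusted p = 0.000825) and 0.18 ± 0.07 at 63 dpc (adjusted p = 0.228).

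**Figure D2:**
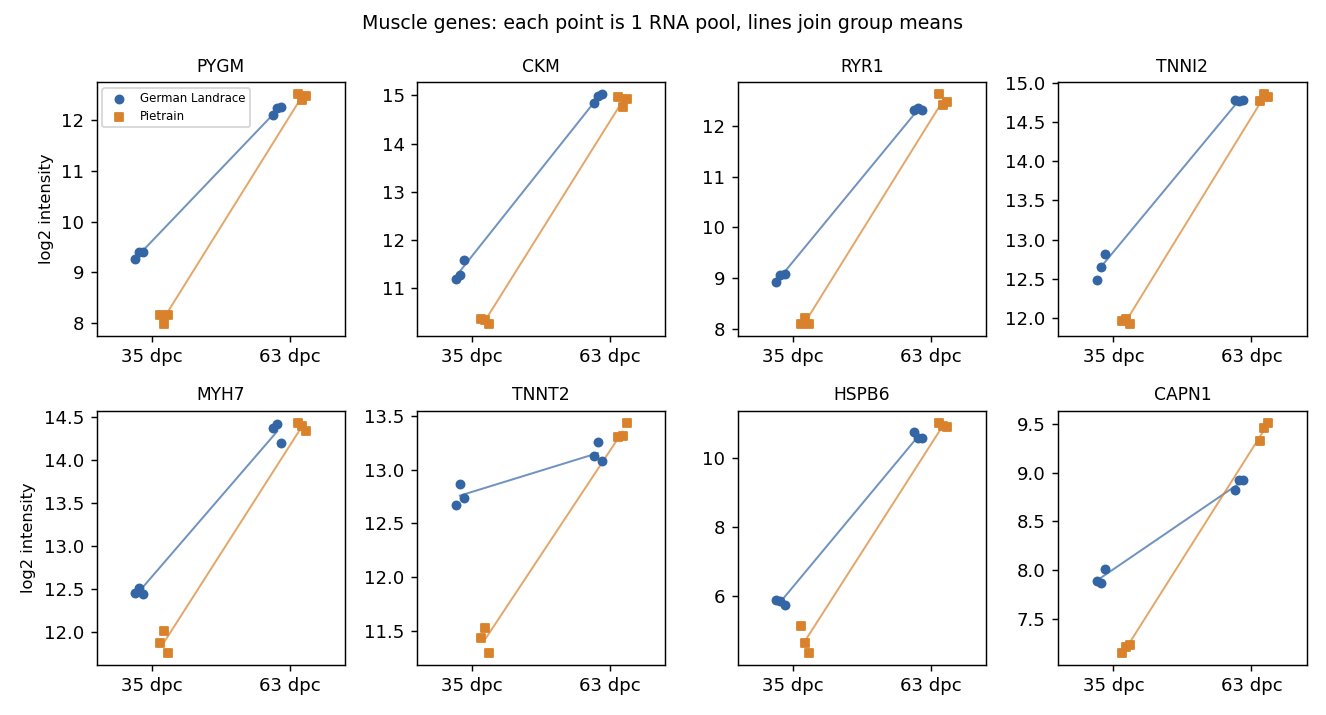
Log2 intensity of 8 muscle genes at 35 and 63 dpc, each point 1 RNA pool (circles German Landrace, squares Pietrain), with lines joining the means of 3 pools and a separate vertical axis for each gene. The Pietrain pools lie below the German Landrace pools at 35 dpc for each gene shown, and the distance is gone or turned round at 63 dpc; in CKM, for example, the Pietrain pools read 10.26 to 10.37 at 35 dpc and 14.76 to 14.96 at 63 dpc.

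Among the sarcomere isoforms, which set the speed of a fibre, both the fast and the slow lists held positive calls. Of 9 fast genes 2 were called (22.2%, against 5.44% of all genes positive), TNNI2 and TNNT3, the fast troponins I and T. TNNI2 read 12.49, 12.65 and 12.82 in German Landrace and 11.96, 11.99 and 11.92 in Pietrain at 35 dpc, and 14.78, 14.77 and 14.78 against 14.77, 14.86 and 14.82 at 63 dpc. Its interaction was 0.74 ± 0.11 (adjusted p = 0.00802), and that of TNNT3 was 0.85 ± 0.16 (adjusted p = 0.0214). Of 10 slow genes 2 were called, the slow myosin heavy chain MYH7 (0.65 ± 0.11, adjusted p = 0.0155) and the slow myosin light chain MYL3 (0.79 ± 0.15, adjusted p = 0.018). MYH7 stood at 12.46, 12.52 and 12.45 in German Landrace and 11.88, 12.02 and 11.76 in Pietrain at 35 dpc, and at 14.20 to 14.42 and 14.34 to 14.43 at 63 dpc. The distance between the breeds was thus present at the first stage, and the pools overlapped at the second. The medians of the fast and slow lists, 0.02 and 0.06, were close to that of all genes, and turned to -0.61 and -0.57 with the hybridisation controls as the scale. On that scale the 4 calls were lost: TNNI2 had 0.11, TNNT3 0.22, MYH7 0.02 and MYL3 0.16 (adjusted p = 0.506, 0.314, 0.925 and 0.533).

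TNNT2, the cardiac troponin T that fetal skeletal muscle also makes, stood out among 5 embryonic and perinatal sarcomere genes as the single call at their representative probe sets. It went from 12.67, 12.87 and 12.74 to 13.13, 13.26 and 13.08 in German Landrace, and from 11.43, 11.52 and 11.29 to 13.31, 13.32 and 13.44 in Pietrain. The rise was 1.32-fold in one breed and 3.85-fold in the other, an interaction of 1.54 ± 0.12 (adjusted p = 0.000801). NCAM1, another of the 5, was not called at its representative probe set (-0.2). A further NCAM1 probe set, named after its value was seen, had -1.39 ± 0.18 (adjusted p = 0.00543, and 0.137 over all 24 arrays). Over all 24 arrays the adjusted p of TNNT2 was 0.0509, and that of MYL3 was 0.0958. The TNNT3 call was lost without 2 of the 12 arrays, with the highest adjusted p, 0.0531, without German Landrace 35 dpc pool b.

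Of 26 genes of the Z-disc, titin and the thin filament, 5 were positive (19.2%, against 5.44% of all genes) and 1, the Z-disc protein myotilin (MYOT, -0.54), was negative (3.85%, against 3.43%). HSPB6, a small heat shock protein abundant in muscle, had the largest value, 1.43 ± 0.24 (adjusted p = 0.012). Its German Landrace pools went from 5.89, 5.86 and 5.73 to 10.74, 10.58 and 10.58, and its Pietrain pools from 5.14, 4.64 and 4.34 to 11.02, 10.92 and 10.90. HSPB1, a related small heat shock protein, had an interaction of 0.81 ± 0.08 (adjusted p = 0.00209). DES, the intermediate filament desmin, reached 0.61 ± 0.12 (adjusted p = 0.0244) and PDLIM7, a Z-disc adaptor, 0.56 ± 0.14 (adjusted p = 0.0481), and both fell to -0.02 and -0.07 on the hybridisation scale. The other probe sets of HSPB6 and DES, 1 each, had -0.2 and 0.05, and neither was called. Leaving out 1 array ended the DES call in 6 of 12 cases (at most 0.0586, without Pietrain 35 dpc pool c) and the PDLIM7 call in 11 (at most 0.107, without German Landrace 35 dpc pool a). The list then held 2 to 4 positive calls and 0 to 2 negative ones. The MYOT call was among those lost: the list had 0 negative calls without German Landrace 35 dpc pool a, b or c, or Pietrain 63 dpc pool a, b or c.

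The genes of calcium release and excitation-contraction coupling moved both ways. Besides RYR1, the calcium channel subunit CACNA2D1 was positive (1.28 ± 0.19, adjusted p = 0.00781). Its pools read 10.45, 10.40 and 10.44 in German Landrace and 9.68, 9.19 and 9.37 in Pietrain at 35 dpc, and 11.28 to 11.63 and 11.59 to 11.83 at 63 dpc. TMEM38A, a potassium channel of the sarcoplasmic reticulum that accompanies calcium release, went the other way, with an interaction of -4.15 ± 0.82 (adjusted p = 0.0223). In German Landrace it was at background in all pools at 35 dpc (2.10, 2.10 and 2.11) and at 6.53, 5.64 and 5.79 at 63 dpc, at least 12.1-fold higher. "At least" marks a fold computed against the background ceiling, because the lower group had no pool above it. In Pietrain TMEM38A was already at 4.42, 5.21 and 5.50 at 35 dpc and stood at 3.76, 4.29 and 6.27 at 63 dpc. Its call was lost without 6 of the 12 arrays, with the highest adjusted p, 0.054, without Pietrain 35 dpc pool c.

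In energy metabolism the calls were divided. Of 29 genes of glycolysis and glycogen 3 were positive and 3 negative (10.3% each, against 5.44% and 3.43% of all genes). FBP2, the muscle fructose bisphosphatase that runs against glycolysis, had the most negative value, -3.30 ± 0.36 (adjusted p = 0.00299). It rose in German Landrace, from 3.05, 3.92 and 3.85 to 6.22, 6.12 and 6.08, and fell in Pietrain, from 3.72, 4.45 and 3.69 to 3.30, 3.01 and 3.23. The breeds overlapped at 35 dpc and stood almost 3 log2 units apart at 63 dpc (Pietrain minus German Landrace -2.96, adjusted p = 0.00175). SLC16A3, a lactate exporter of glycolytic fibres, was positive at 1.89 ± 0.38 (adjusted p = 0.0239), and SLC2A1, the basal glucose transporter, negative at -0.71 ± 0.16 (adjusted p = 0.0337). SLC16A3 lost its call without 3 of the 12 arrays (at most 0.0534, without German Landrace 63 dpc pool a) and SLC2A1 without 9 (at most 0.0787, without German Landrace 35 dpc pool b), and SLC2A1 also over all 24 arrays (adjusted p = 0.953).

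Mitochondrial genes were called in both directions as well. Of 76 measured genes for the respiratory chain, ATP synthase and citric acid cycle 7 were positive (9.21%) and 3 negative (3.95%). The shares of all genes were 5.44% and 3.43%. The median of the list was 0.11 and turned to -0.52 on the hybridisation scale. IDH3G, a subunit of isocitrate dehydrogenase, was positive at 0.94 ± 0.16 (adjusted p = 0.0132), and NDUFA3, a complex I subunit, at 0.85 ± 0.12 (adjusted p = 0.00766). NDUFS6, which belongs to the same complex, was negative at -1.82 ± 0.25 (adjusted p = 0.00609), rising from 8.04, 8.05 and 7.94 to 9.46, 9.24 and 9.05 in German Landrace and falling from 8.63, 8.88 and 8.71 to 8.60, 7.95 and 7.94 in Pietrain. Subunits of 1 complex thus differed in sign. On the hybridisation scale IDH3G and NDUFA3 shrank to 0.31 and 0.22 and lost their calls (adjusted p = 0.196 and 0.292). The largest positive value of the list, that of the complex I subunit NDUFV3 (2.20 ± 0.50, adjusted p = 0.0365), was lost without 10 of the 12 arrays (at most 0.0828, without German Landrace 35 dpc pool b).

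Of 31 measured genes that take up or oxidise fatty acids 3 were negative (9.68%, against 3.43% of all genes) and 1 was positive (3.23%, against 5.44%). DECR1, which reduces dienoyl intermediates of unsaturated fatty acids, rose in German Landrace from 7.58, 7.61 and 7.43 to 8.93, 8.89 and 8.86. Its Pietrain pools were already at 8.12, 8.08 and 8.30 at 35 dpc and read 8.48, 8.08 and 8.62 at 63 dpc, an interaction of -1.12 ± 0.18 (adjusted p = 0.0108). Here the Pietrain pools were the higher ones at the first stage and the lower ones at the second. ACADM, the medium-chain acyl-CoA dehydrogenase, had -0.65 ± 0.12 (adjusted p = 0.0208) and UCP2, an uncoupling protein, 1.72 ± 0.34 (adjusted p = 0.0216). Each of the last 2 lost its call without 2 of the 12 arrays (at most 0.0504 and 0.0542, both without German Landrace 35 dpc pool b) and over all 24 arrays (adjusted p = 0.0992 and 0.174).

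Growth regulators gave few calls. In a list of 20 genes of the IGF axis and imprinted genes 2 were positive (10%, against 5.44% of all genes). Limma called 0 negative, with 2 negative at an unadjusted p below 0.05 and 0 over all 24 arrays. IGFBP5, a binding protein that regulates IGF action in muscle precursors, read 10.06, 10.03 and 9.66 and then 9.91, 10.37 and 10.14 in German Landrace, where its step was not called. In Pietrain it rose from 8.48, 8.63 and 8.61 to 10.75, 10.68 and 10.89. The Pietrain pools lay below all German Landrace pools at 35 dpc and above them all at 63 dpc, and the interaction was 1.98 ± 0.19 (adjusted p = 0.00209). GRB10, an imprinted adaptor that restrains insulin and IGF signalling, had 0.75 ± 0.18 (adjusted p = 0.0435), a call lost without 10 of the 12 arrays (at most 0.0987, without German Landrace 35 dpc pool a).

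IGF2, the main fetal growth factor of the family, was represented by its brightest probe set, which was not called (0.49 ± 0.15, adjusted p = 0.0888, and -0.14 on the hybridisation scale). Of its 12 other probe sets 3 were called, all positive, at 1.97 ± 0.25, 1.06 ± 0.15 and 0.85 ± 0.12 (adjusted p = 0.00487, 0.00737 and 0.00723). They lie outside the rule for named genes and were chosen after their values were seen. The first of them read 11.52, 12.19 and 12.19 in German Landrace and 11.18, 10.84 and 10.92 in Pietrain at 35 dpc, and 12.77, 12.95 and 12.87 against 13.71, 13.84 and 13.99 at 63 dpc. IGF2 probe sets thus differed among themselves in size, and the 12 others ran from -0.58 to 1.97.

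The myogenic regulators showed little. Of 18 such genes 1 was called (5.56%, against 3.43% of all genes negative), MYF6, a muscle transcription factor of maturing fibres, at -0.54 ± 0.12 (adjusted p = 0.0369). It rose from 6.68 to 6.74 in German Landrace and 6.38 to 6.62 in Pietrain to 9.62 to 9.76 and 8.86 to 9.13, these being the lowest and highest pools. The MYF6 call was lost without 9 of the 12 arrays (at most 0.0831, without Pietrain 35 dpc pool c) and over all 24 arrays (adjusted p = 0.596). The other MYF6 probe set had -0.04 and was not called. MYOD1, the determination factor, was not called at its representative probe set (0.64 ± 0.25, adjusted p = 0.187), while its other probe set, named after its value was seen, had 1.41 ± 0.22 (adjusted p = 0.0107). MYF5, an early factor, had 0.07 ± 0.53 and MSTN, myostatin, -0.05 ± 0.30 (adjusted p = 0.969 and 0.96), intervals too wide to say that the steps were alike.

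The calpain protease system, which cuts muscle proteins in a calcium-dependent way, was called in 2 of its subunits. CAPN1, the large subunit of calpain 1, went from 7.89, 7.87 and 8.01 to 8.82, 8.92 and 8.92 in German Landrace. In Pietrain it went from 7.15, 7.21 and 7.23 to 9.32, 9.46 and 9.51, an interaction of 1.27 ± 0.09 (adjusted p = 0.000744). The order of the breeds turned round between the stages, with no overlap at either. CAPNS1, the small subunit, had 0.69 ± 0.09 (adjusted p = 0.00487), which shrank to 0.06 on the hybridisation scale. CAPN2, the large subunit of calpain 2 (0.40), was not called, and neither were the muscle-specific CAPN3 (0.73 ± 0.43, adjusted p = 0.406) and the inhibitor CAST (-0.28 ± 0.15, adjusted p = 0.346). Of the 23 genes of protein degradation in the list, 3 were positive (13.0%, against 5.44% of all genes) and 1 negative (4.35%, against 3.43%). The negative one was the ubiquitin-conjugating enzyme UBE2B (-0.71 ± 0.14, adjusted p = 0.0232). Its call was lost without 5 of the 12 arrays (at most 0.0564, without Pietrain 35 dpc pool c) and over all 24 arrays (adjusted p = 0.0724).

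A few cell-cycle genes fell in German Landrace and rose in Pietrain. CDC20, an activator of the anaphase-promoting complex, read 8.82, 8.92 and 8.91 and then 8.24, 8.24 and 8.30 in German Landrace. It read 8.43, 8.30 and 8.24 and then 8.99, 9.07 and 9.01 in Pietrain, an interaction of 1.32 ± 0.09 (adjusted p = 0.000734). MCM5, part of the replicative helicase, went from 8.31, 8.46 and 8.34 to 7.53, 7.34 and 6.66 in German Landrace and from 7.67, 7.45 and 7.52 to 8.24, 8.25 and 8.35 in Pietrain (1.93 ± 0.27, adjusted p = 0.006). For both genes the German Landrace pools were all higher at 35 dpc and all lower at 63 dpc. The list of 36 cell-cycle and replication genes as a whole held 4 positive calls (11.1%, against 5.44% of all genes) and 1 negative (2.78%, against 3.43%). Its median was 0.05, which turned to -0.58 on the hybridisation scale. The negative call, LMNB1 at -2.06, was the largest in size of these. At an unadjusted p below 0.05, 7 genes were positive and 6 negative. Leaving out 1 array gave 0 to 2 negative calls, and the model over 24 arrays called 2 positive and 0 negative. TOP2A, a topoisomerase of dividing cells, had steps of -1.57 in German Landrace and -1.28 in Pietrain (interaction 0.28 ± 0.15, adjusted p = 0.338, and -0.35 on the hybridisation scale). Without German Landrace 35 dpc pool b or Pietrain 35 dpc pool c the list held 2 positive calls, and AURKB, a mitotic kinase (1.17 ± 0.26, adjusted p = 0.0349), lost its call without 9 of the 12 arrays (at most 0.0816, without the former) and over all 24 arrays (adjusted p = 0.729).

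Of 39 extracellular matrix genes 4 were negative (10.3%, against 3.43% of all genes) and 2 positive (5.13%, against 5.44%). Their median was 0.05 (-0.58 on the hybridisation scale), 9 were negative and 8 positive at an unadjusted p below 0.05, and the model over 24 arrays called 1 in each direction. MMP14, a membrane-bound matrix metalloproteinase, had an interaction of -5.33 ± 0.75 (adjusted p = 0.00668). It rose in German Landrace from 3.93, 2.27 and 3.44 to 7.02, 7.25 and 7.0, while the Pietrain pools read 5.90, 7.75 and 7.43 and then 5.84, 5.04 and 5.84. COL5A2, a chain of the fibril-forming collagen V, rose 4.15-fold in German Landrace, from 6.95, 7.10 and 6.77 to 8.74, 8.98 and 9.26. In Pietrain its step was not called (0.26, adjusted p = 0.245), and the interaction was -1.80 ± 0.23 (adjusted p = 0.00485). CYR61, a matricellular growth signal, had -1.28 ± 0.20 (adjusted p = 0.00977). The last 2 calls were lost over all 24 arrays (adjusted p = 0.164 and 0.0901), that of MMP14 was not (adjusted p = 0.000606).

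**Figure D3:**
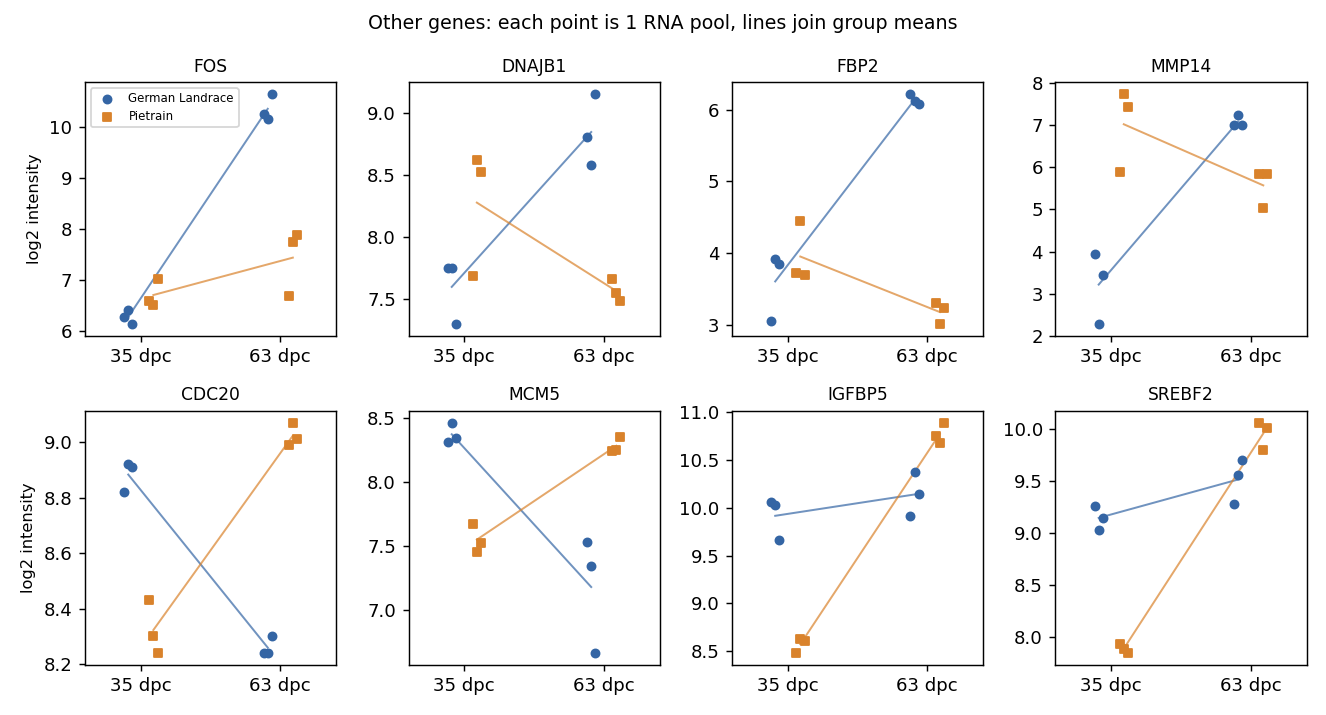
Log2 intensity of FOS, DNAJB1, FBP2, MMP14, CDC20, MCM5, IGFBP5 and SREBF2 at 35 and 63 dpc, each point 1 RNA pool (circles German Landrace, squares Pietrain), with lines joining group means and a separate vertical axis for each gene. In the first 4 genes the German Landrace line climbs and ends above a flatter or falling Pietrain line, as in FOS with 10.16 to 10.65 against 6.68 to 7.88 at 63 dpc, and in the other 4 the Pietrain pools go from below all German Landrace pools to above them.

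Immediate early and heat shock genes, which respond within minutes to hours to stimulation or stress of a tissue, were called on the negative side. Of 35 measured genes 7 were negative (20%, against 3.43% of all genes) and limma called 0 positive, with 1 positive at an unadjusted p below 0.05 and 0 over all 24 arrays. Leaving out 1 array gave 5 to 8 negative calls, and the model over 24 arrays gave 3. FOS, a subunit of the transcription factor AP-1, went from 6.28, 6.41 and 6.13 to 10.26, 10.16 and 10.65 in German Landrace, a 17.0-fold rise. In Pietrain it read 6.58, 6.51 and 7.02 and then 6.68, 7.75 and 7.88, and its interaction was -3.35 ± 0.42 (adjusted p = 0.00468). The breeds were close at 35 dpc and apart at 63 dpc. At 63 dpc 8 genes of the list were lower in Pietrain (against 2.04% of all probe sets). Limma called 0 higher, with 11 at an unadjusted p below 0.05 in either direction.

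The chaperones of the list took different courses to the same sign. DNAJB1, a co-chaperone induced by heat, rose in German Landrace from 7.75, 7.75 and 7.30 to 8.80, 8.58 and 9.15 and fell in Pietrain from 7.69, 8.62 and 8.52 to 7.66, 7.55 and 7.49 (-1.95 ± 0.35, adjusted p = 0.0168). DNAJA1, a co-chaperone of HSP70, fell in both breeds and further in Pietrain: from 12.58, 12.67 and 12.69 to 11.75, 11.58 and 11.70, and from 13.12, 12.92 and 12.99 to 10.98, 11.14 and 11.11 (-0.96 ± 0.11, adjusted p = 0.00299). HSPH1, a nucleotide exchange factor of HSP70, had -1.27 ± 0.25 (adjusted p = 0.023). Over all 24 arrays the DNAJA1 and HSPH1 calls were lost (adjusted p = 0.0978 and 0.114), and HSPH1 was also lost without 3 of the 12 arrays (at most 0.0555, without German Landrace 35 dpc pool c). The mean level of the 35 genes was 8.17 to 8.24 in German Landrace and 8.19 to 8.28 in Pietrain at 35 dpc, and 8.57 to 8.88 and 8.19 to 8.45 at 63 dpc.

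Of 18 genes of the responses to hypoxia and glucocorticoids 4 were negative (22.2%, against 3.43% of all genes) and 1 was positive (5.56%, against 5.44%). EPAS1, the hypoxia-inducible factor 2 alpha of vessels, rose in German Landrace from 3.13, 2.92 and 2.77 to 4.80, 5.70 and 5.21. The Pietrain pools read 3.81, 4.15 and 3.95 and then 4.01, 4.79 and 4.37, an interaction of -1.88 ± 0.35 (adjusted p = 0.0192). VEGFA, the vascular growth factor, had -0.69 ± 0.17 (adjusted p = 0.0497) and TSC22D3, a glucocorticoid-induced leucine zipper protein, 0.90 ± 0.21 (adjusted p = 0.0375). These last 2 calls were each lost without 10 of the 12 arrays (at most 0.108 and 0.084, both without Pietrain 35 dpc pool c), and the list then held 1 to 3 negative calls.

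Liver genes gave 3 of the 4 most negative interactions among named genes. Of 34 measured liver and plasma protein genes 5 were negative (14.7%, against 3.43% of all genes) and limma called 0 positive, with 0 positive at an unadjusted p below 0.05. The median of the list was -1.38, beside 0.04 over all genes. ALB, serum albumin, stood at 4.02, 4.27 and 3.33 in German Landrace at 35 dpc and at 8.38, 7.98 and 8.21 at 63 dpc. In Pietrain it stood at 2.99, 3.38 and 3.01 and then at 2.32 in each pool, at or next to the background ceiling, and the interaction was -5.13 ± 0.31 (adjusted p = 0.000734). APOC3, an apolipoprotein of triglyceride-rich particles, went from 2.62, 3.71 and 2.27 to 7.54, 6.80 and 8.35 in German Landrace and stayed between 2.36 and 2.80 in Pietrain (-4.99 ± 0.59, adjusted p = 0.00351). Both held in all 12 fits that left out 1 array.

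SERPINA1, the plasma antitrypsin, had the largest value of all named genes, -8.88 ± 1.73 (adjusted p = 0.0215), from pools that spread widely. They read 10.52, 11.22 and 6.14 and then 13.31, 11.82 and 13.81 in German Landrace, and 7.10, 6.32 and 8.80 and then 2.25, 2.20 and 2.20 in Pietrain. At 63 dpc SERPINA1 was at least 1590-fold lower in Pietrain, whose pools were all at background. AHSG, a fetal plasma glycoprotein, followed with -7.93 ± 1.59 (adjusted p = 0.0238) and TTR, the thyroid hormone carrier, with -3.69 ± 0.83 (adjusted p = 0.0358). These 3 calls were lost without 1, 4 and 10 of the 12 arrays, with highest adjusted p-values of 0.0502 and 0.0566 without Pietrain 35 dpc pool c and 0.081 without German Landrace 35 dpc pool c.

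Across the whole liver list the mean level was 4.37, 4.51 and 3.64 in German Landrace at 35 dpc and 5.97, 4.93 and 6.81 at 63 dpc, and 3.56, 3.78 and 3.87 and then 3.50, 3.43 and 3.41 in Pietrain. All 3 German Landrace pools at 63 dpc were thus above every other pool, pool b least. At 63 dpc 24 of the 34 genes were above background in all German Landrace pools and 10 in all Pietrain pools. The number of negative calls was 12 without German Landrace 63 dpc pool b, 2 without Pietrain 35 dpc pool c, and 3 without German Landrace 63 dpc pool a or Pietrain 63 dpc pool b or c. The model over all 24 arrays called 0 of the 34, with 5 at an unadjusted p below 0.05; its adjusted p-values for SERPINA1, AHSG, ALB, APOC3 and TTR were 0.0774, 0.095, 0.387, 0.323 and 0.487. The part of these transcripts in the other negative interactions was not tested.

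**Figure D4:**
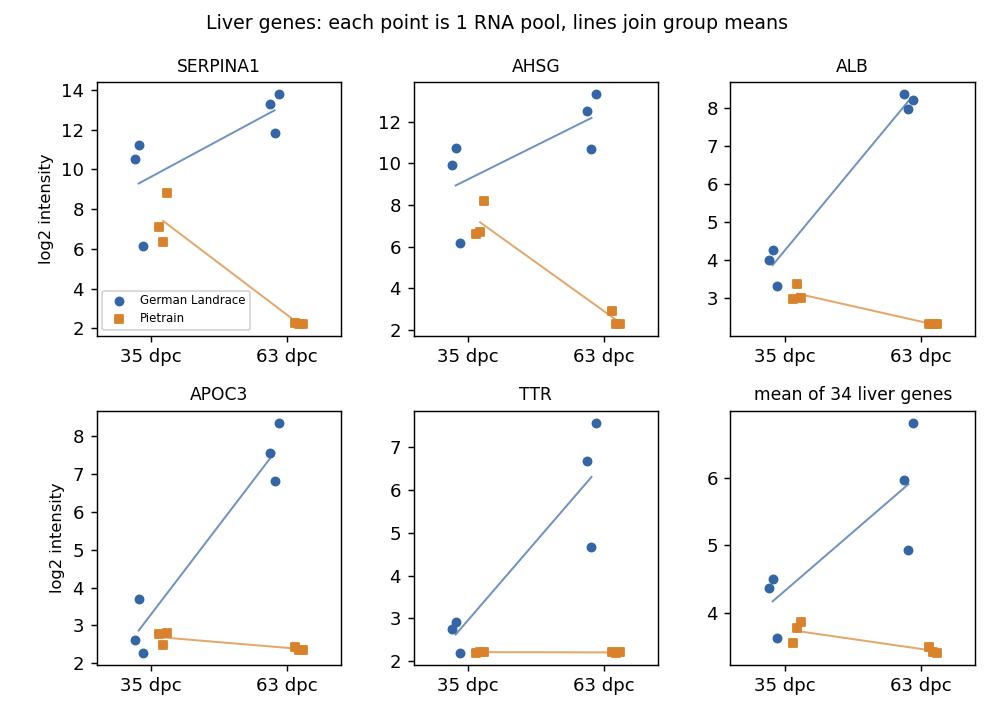
Log2 intensity of 5 liver genes and the mean over all 34 liver genes at 35 and 63 dpc, each point 1 RNA pool (circles German Landrace, squares Pietrain), with lines joining group means and a separate vertical axis in each panel. The German Landrace pools at 63 dpc stand above all other pools for the list mean, at 4.93 to 6.81, and in each gene except AHSG, where pool b (10.68) lies just under a 35 dpc pool (10.72); the Pietrain pools at 63 dpc have the lowest list means, 3.41 to 3.50.

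Blood and nerve markers were called in small numbers. Of 11 erythroid markers 2 were negative (18.2%, against 3.43% of all genes) and 1 positive (9.09%, against 5.44%). AHSP, the chaperone of alpha globin, read 7.33 to 8.38 in German Landrace over both stages and fell in Pietrain from 7.20, 6.37 and 6.73 to 4.22, 4.69 and 4.78 (-2.08 ± 0.43, adjusted p = 0.0266). HBE1, the embryonic globin, fell in both breeds to 2.10 to 2.37 at 63 dpc, at or next to the background ceiling, from 9.05, 8.19 and 8.84 in German Landrace and 7.13, 6.43 and 6.54 in Pietrain. Its interaction of 2.05 ± 0.34 (adjusted p = 0.012) went with a breed difference of -1.99 at 35 dpc and 0.05 at 63 dpc. HBB, the adult beta globin, was not called (-0.37 ± 0.20, adjusted p = 0.357). AHSP lost its call without 5 of the 12 arrays (at most 0.0637, without German Landrace 35 dpc pool b) and over all 24 arrays (adjusted p = 0.328).

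Of 28 neural markers 3 were positive (10.7%, against 5.44% of all genes), among a list whose median step was -6.20 in German Landrace and -5.51 in Pietrain. At 63 dpc 14 of the 28 were at background in all German Landrace pools and 16 in all Pietrain pools, so their steps are cut off there. CHGB, 1 of the 3 called, had 0 pools above background at 63 dpc in either breed. Its interaction of 0.76 thus mostly restates its breed difference at 35 dpc (-0.70). STMN2, a microtubule regulator of growing axons, fell from 13.96, 13.64 and 13.72 to 3.83, 3.92 and 3.18 in German Landrace and from 13.61, 13.94 and 13.61 to 5.02, 5.10 and 4.63 in Pietrain. The pools overlapped at 35 dpc and the Pietrain pools were all higher at 63 dpc, an interaction of 1.32 ± 0.30 (adjusted p = 0.0348). The list mean was 8.02 to 8.26 and 7.75 to 8.25 at 35 dpc and 2.68 to 2.92 and 2.81 to 2.95 at 63 dpc in German Landrace and Pietrain. Leaving out 1 array gave 0 to 3 calls, and the STMN2 call was lost without 7 of the 12 arrays (at most 0.08, without German Landrace 35 dpc pool a).

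The other marker lists held few calls. In the 8 lists for Schwann cells, immune cells, adipocytes, cartilage and bone, tendon and mesenchyme, keratinocytes, kidney epithelium, and endoderm and general epithelium, limma called 0 of 128 genes, with 11 at an unadjusted p below 0.05 and 0 called over all 24 arrays. Of 23 endothelial markers 1 was negative (4.35%, against 3.43% of all genes), RAMP2, a receptor partner of adrenomedullin (-0.58 ± 0.09, adjusted p = 0.0116, and 0.111 over all 24 arrays). It read 7.60, 7.75 and 7.71 in German Landrace and 8.43, 8.24 and 8.25 in Pietrain at 35 dpc, and 9.87 to 9.98 and 9.93 to 9.99 at 63 dpc. Of 11 smooth muscle markers 1 was positive (9.09%, against 5.44% of all genes), SMTN, smoothelin, which skeletal muscle also expresses (0.91 ± 0.16, adjusted p = 0.017, and 0.337 on the hybridisation scale).

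Among genes of sterol and lipid synthesis 3 of 22 were positive (13.6%, against 5.44% of all genes). The median was 0.36, the highest of the 35 lists and panel, turning to -0.27 on the hybridisation scale. With each gene's probe sets averaged, the median was 0.16, below the 0.34 of embryonic and perinatal sarcomere genes. The model over 24 arrays called 1 in each direction. SREBF2, the transcription factor that switches on cholesterol synthesis, went from 9.26, 9.03 and 9.14 to 9.28, 9.56 and 9.70 in German Landrace and from 7.93, 7.88 and 7.84 to 10.06, 9.80 and 10.01 in Pietrain. Its rise was 1.29-fold and 4.21-fold, and the interaction 1.70 ± 0.16 (adjusted p = 0.00209). SREBF2 has 3 other probe sets on the array, whose values ran from -0.70 to 0.20, and none of them was called. FADS1, the delta-5 desaturase of polyunsaturated fatty acids, fell in German Landrace from 7.34, 7.74 and 7.36 to 6.80, 6.91 and 6.09 and rose in Pietrain from 6.72, 6.06 and 6.16 to 7.26, 7.14 and 7.43 (1.84 ± 0.35, adjusted p = 0.019; 0.486 over all 24 arrays).

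Of 31 interferon and MHC class I genes 3 were positive (9.68%, against 5.44% of all genes). ISG12(A), an interferon-induced gene, fell in German Landrace from 7.37, 6.89 and 7.34 to 6.21, 5.69 and 6.03. The Pietrain pools read 7.18, 7.20 and 7.75 and then 8.0, 8.12 and 7.73, an interaction of 1.80 ± 0.29 (adjusted p = 0.0117). MX1, an antiviral GTPase, fell further in German Landrace (1.85 ± 0.45, adjusted p = 0.045), a call lost without 8 of the 12 arrays (at most 0.0998, without German Landrace 35 dpc pool a). B2M, the light chain of MHC class I, gave opposite calls from different probe sets, 0.55 ± 0.13 at the brightest (-0.08 on the hybridisation scale) and -0.43 ± 0.09 at another. Of 59 ribosomal protein genes, 21 had an unadjusted p below 0.05 (15 negative and 6 positive). After adjustment 1 was positive, RPL27 (0.47 ± 0.11, and -0.16 on the hybridisation scale), and 1 negative, RPL9 (-0.39 ± 0.07). Each was 1.69% of the list, against 5.44% and 3.43% of all genes. Without 1 array the B2M and RPL27 calls were each lost in 10 of 12 cases (at most 0.106 and 0.0887, both without German Landrace 35 dpc pool b), and the RPL9 call was lost over all 24 arrays (adjusted p = 0.113).

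**Figure D5:**
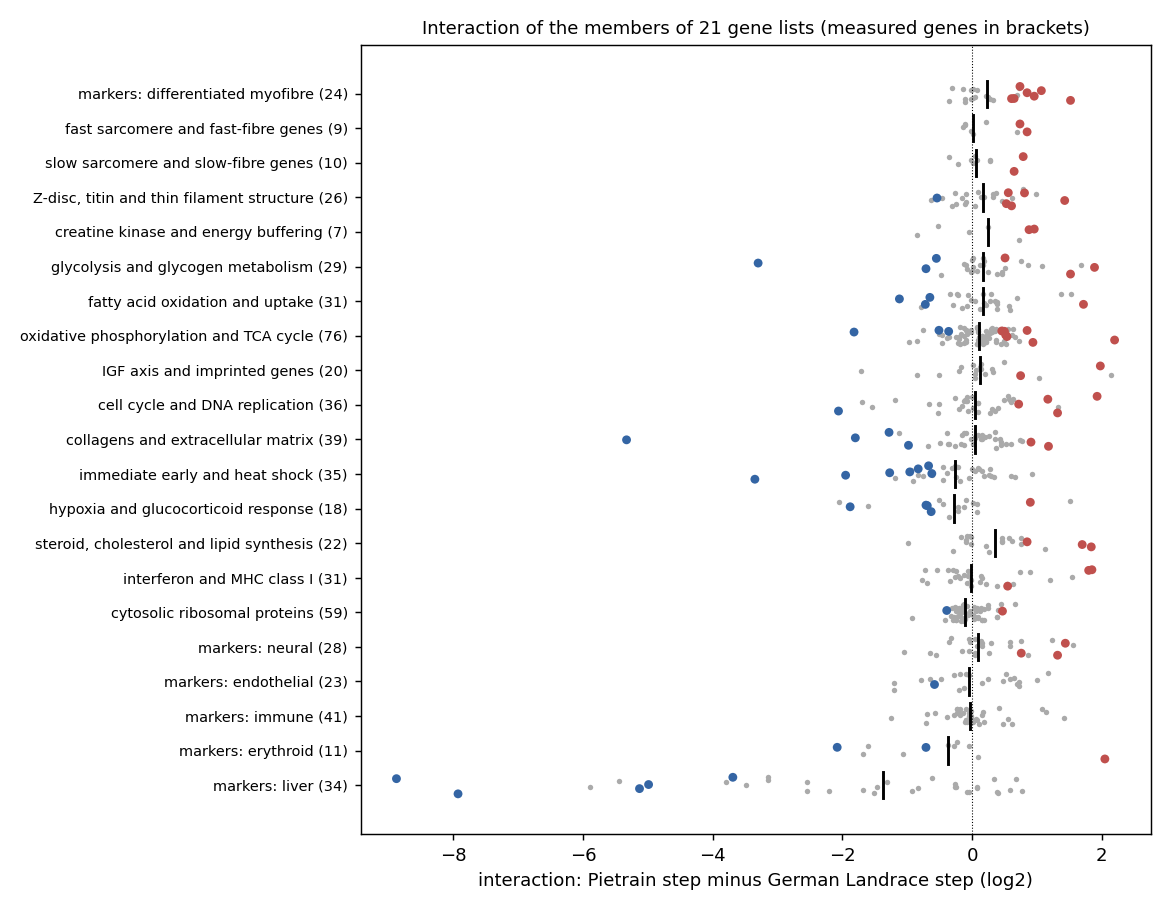
Interaction (horizontal axis, log2, Pietrain step minus German Landrace step) of the measured members of 21 gene lists, 1 point per gene at the probe set with the highest mean, red or blue where limma called it positive or negative and grey where it was not called, with a black bar at each list's median. The liver markers reach to -8.88 around a median of -1.38, while most other medians lie near 0, such as 0.23 for differentiated myofibres and -0.26 for immediate early and heat shock genes; on the hybridisation scale all points move by -0.63.

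Outside the lists, the largest interactions fell on genes of varied function. OGFOD3, a predicted oxygenase, read 6.39, 6.78 and 6.72 and then 7.12, 6.64 and 7.31 in German Landrace. In Pietrain it rose 6.59-fold, from 4.70, 5.32 and 4.86 to 7.76, 7.56 and 7.72, an interaction of 2.32 ± 0.29 (adjusted p = 0.00448). ST3GAL3, a sialyltransferase of the Golgi, had the highest value of the positive genes, 3.46 ± 0.63 (adjusted p = 0.017), from 4.47, 3.99 and 3.54 and then 3.25, 4.90 and 3.17 in German Landrace, and 2.49, 2.30 and 2.61 and then 5.49, 6.15 and 5.46 in Pietrain. For both genes the Pietrain pools were the lowest at 35 dpc and the highest at 63 dpc. GARNL3, with a Rap GTPase-activating domain, had 2.29 ± 0.30 (adjusted p = 0.00507), and PYCR3, which makes proline, had 2.27 ± 0.32 (adjusted p = 0.00709). The other probe sets of OGFOD3 and GARNL3, 1 each, had 0.95 and -0.03, and neither was called.

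ATP13A2, a lysosomal polyamine transporter, fell in German Landrace from 6.93, 6.66 and 6.47 to 4.92, 5.29 and 4.38 and stood at 5.15 to 5.55 and 5.78 to 5.88 in Pietrain (2.28 ± 0.30, adjusted p = 0.00548; 0.145 over all 24 arrays). Its 2 other probe sets had -1.26 and -0.04, and neither was called. POLR2E, a subunit shared by the nuclear RNA polymerases, was among the most negative, at -4.50 ± 0.76 (adjusted p = 0.0132). It went from 7.80, 8.10 and 7.81 to 10.88, 10.70 and 10.94 in German Landrace and from 8.40, 10.70 and 10.79 to 8.03, 8.49 and 8.65 in Pietrain. Pool a of Pietrain at 35 dpc stood more than 2 log2 units below the other two. NPY1R, TDH, NRSN1, TST, FAM162B, AGBL5 and ZNF358, also among the 12 largest positive values (2.22 to 2.63), each lost their call without 8 to 10 of the 12 arrays, with highest adjusted p-values of 0.0688 to 0.102. PRKAA1, a catalytic subunit of AMP-activated kinase (-3.08 ± 0.70, adjusted p = 0.0367), lost it without 10 (at most 0.0846, without German Landrace 35 dpc pool b). AGT, the precursor of angiotensin, made largely by the liver, had -3.31 ± 0.65 (adjusted p = 0.0216), lost without 2 (at most 0.0541, without German Landrace 35 dpc pool a).

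Many familiar muscle and growth genes did not pass. Of a panel of 28 measured genes 6 were positive and 1 negative (21.4% and 3.57%, against 5.44% and 3.43% of all genes). ACTC1, the fetal actin, was at 15.18 to 15.68 in all 12 pools with an interaction of 0.31 ± 0.13 (adjusted p = 0.241), and TNNI1, the slow troponin I, had 0.28 ± 0.08 (adjusted p = 0.0694); these turned to -0.32 and -0.35 on the hybridisation scale. ATP2A1, the fast calcium pump, rose in both breeds, from 5.73, 5.97 and 5.63 to 10.02, 9.69 and 9.87 in German Landrace and from 5.12, 4.47 and 4.19 to 9.52, 9.30 and 9.29 in Pietrain. Its interaction was 0.70 ± 0.30 (adjusted p = 0.233). MYH2, the fast IIa myosin heavy chain, had -0.14 ± 0.57, IGF1 had -1.71 ± 0.68 and COL3A1 had 0.74 ± 0.92 (adjusted p = 0.939, 0.199 and 0.737). Standard errors of 0.57 to 0.92 on the log2 scale left room for differences of 2-fold in these 3 genes.

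The 106 named genes held 85 calls, 54 positive and 31 negative. Of the 85, 60 kept their call on the hybridisation scale. Its shift of -0.63 makes negative interactions larger in size, so that count is little test of the negative calls. Of the same 85, 47 were also called over all 24 arrays, 43 in every fit that left out 1 array, and 21 with either the GAPDH or the dap difference as a covariate. Apart from the hybridisation scale and the threshold of 0.01, every alternative left call and direction in place for 12 genes. They were OGFOD3, FOS, FBP2, HSPB1, RYR1, IGFBP5, PYGM, CKM, CDC20, CAPN1, CAPNS1 and SREBF2. The alternatives counted here also took in the array weights, the robust prior, the background filter, the floor at background and the block for pool letters. On the hybridisation scale HSPB1, CKM and CAPNS1 kept their sign but not their call (adjusted p = 0.347, 0.111 and 0.736). Where a called gene had further probe sets, they did not always follow: 214 such genes had 320 others, of which 206 had the same sign, 26 were called in the same direction and 5 in the opposite one.

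A breed difference at 91 dpc, a stage the interaction did not use, was looked up after the other results had been seen. In the model over all 24 arrays 653 probe sets differed between the breeds at 91 dpc (2.72%), 1.35% higher and 1.38% lower in Pietrain. Of the 85 called genes 8 were among them. FOS read 12.14, 12.11 and 12.01 in German Landrace and 8.81, 9.15 and 9.23 in Pietrain at 91 dpc, a difference of -3.02 ± 0.32 (adjusted p = 0.000172), so that the gap seen at 63 dpc was there at 91 dpc too. NDUFS6 (-1.58 ± 0.16, adjusted p = 0.00013), POLR2E (-2.06 ± 0.41, adjusted p = 0.0101) and DNAJB1 (-1.40 ± 0.29, adjusted p = 0.0145) were also lower in Pietrain, and SREBF2 was higher (0.79 ± 0.17, adjusted p = 0.0169). In that model the 35 and 63 dpc arrays enter the 91 dpc difference only through the estimate of the spread.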

How the data were processed

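The deposited table holds 1 log2 intensity per probe set and array. Per the submitters' processing notes GCOS 1.1.1 was used, and per the labels 500 ng of RNA was labelled for each array. How probes were summarised was not stated in the notes or labels. The scale was taken as log2 from its range of 1.60 to 16.10, and all 24 columns held the same sorted values, so the authors had forced 1 distribution on every array. Of 24123 probe sets 124 controls were left out. GEO's annotation gave 1 symbol to 10069 of the rest, several to 198 and none to 13732.

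The 12 arrays were fitted in limma 3.58.1 (R 4.3.3) with 1 mean per group, moderated variances (8 residual and 1.17 prior degrees of freedom) and Benjamini-Hochberg adjustment over 23999 probe sets. The fit was tested on simulated data, with a known interaction at 200 probe sets. An interaction of 1 was recovered at 58 of them (29%, with 4 false calls). An interaction of 2 was recovered at 146 (73%, with 14 false calls), so a gene that was not called can still differ. A gene was represented by its probe set with the highest mean. Named genes were the 12 largest called values in each direction, up to 4 called genes per list, and a panel of 30 (28 measured). Whether a gene's representative probe set itself had to be called was settled after a first listing had been seen. The members and lists were chosen with earlier results of these data known. Alternatives were a 24-array model, array weights, a trended robust prior, a filter for 3 arrays above background, a floor at background, scaling to hybridisation controls, a replicate block, a GAPDH covariate, a threshold of 0.01 and leaving out each array. A dap covariate and the breed difference at 91 dpc were added after seeing the data. The number of arrays limits the precision.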

Additional observations from a re-analysis of the deposited data

Results flagged for a closer look

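Every called interaction is, by its construction, a tested difference between the breeds in the same step: 774 probe sets were positive and 621 negative in limma. Among the 85 called named genes, those whose steps were both called but in opposite directions are repeated here. SERPINA1 (-8.88), AHSG (-7.93), ALB (-5.13), POLR2E (-4.50), FBP2 (-3.30), DNAJB1 (-1.95) and NDUFS6 (-1.82) rose in German Landrace and fell in Pietrain. MCM5 (1.93), FADS1 (1.84), CDC20 (1.32), AURKB (1.17) and TSC22D3 (0.90) fell in German Landrace and rose in Pietrain, the values being interactions on the log2 scale. Over all 24 arrays the calls of SERPINA1, AHSG, ALB, AURKB and FADS1 were lost (adjusted p = 0.0774, 0.095, 0.387, 0.729 and 0.486). An array control for 5S ribosomal RNA, left out of the tests, averaged 5.70 in the Pietrain pools at 63 dpc (5.34 to 6.28), while it read 2.36 to 3.53 in German Landrace at 63 dpc and at most 2.12 in either breed at 35 dpc. Its part in the interactions was not tested.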

How the results depend on the processing

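The count of 1395 interactions became 793 over all 24 arrays, 261 with the GAPDH covariate, 372 with the dap covariate (added after seeing the data), 280 at the threshold of 0.01, 11396 on the hybridisation scale, and 788 to 1489 when 1 array was left out. Array weights (1582), the trended robust prior (1382), the background filter (1267) and the floor (1430) stayed within 1.5 times. Breed differences at 63 dpc went from 891 to 329 over all 24 arrays, and the other breed and step counts stayed within 1.5 times. With the replicate block 971 were called, 888 of them among the 1395 in the same direction. As a check on pairing by letter, 0 of 18 same-letter correlations of deviations passed 0.1 (-0.077 to 0.091). Those of different letters ran from -0.102 to 0.109, so the check showed no pairing but could not exclude it.

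On the hybridisation scale 15 named values turned: DES -0.02, PDLIM7 -0.07, RPL27 -0.16, CTSK -0.15, B2M -0.08, DKK3 -0.03, ACTC1 -0.32, GAPDH -0.56, MYL4 -0.29, TNNI1 -0.35, IGF2 -0.14, FABP3 -0.26, TOP2A -0.35, MYF5 -0.56 and FABP4 -0.52. This follows from the shift of -0.63. The GAPDH covariate turned GAPDH (-0.02), MSTN (0.41) and MYH2 (0.03). The dap covariate turned MYF5 (-0.15), MYH2 (0.74), FABP4 (-0.42) and PDK4 (0.35), and array weights MYF5 (-0.15). Leaving out 1 array gave GAPDH -0.03 to 0.17, MYF5 -0.23 to 0.36, MSTN -0.21 to 0.16, MYH2 -0.43 to 0.28, FABP4 -0.12 to 0.32 and PDK4 -0.60 to 0.20. For the other changes the cause was not tested. Values at or under the background ceiling have no order, and genes near it have only a bound on their fold.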
